A study of Mus musculus with 24 samples.

Results

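The comparison examined was the late response of cortical cultures that lack Npas4: cortex-derived (CTX) Npas4 knockout (KO) neurons after 6 h of raised KCl, against CTX KO neurons at 0 h, which had been silenced and not depolarized. Its arrays were chosen by their titles, which name the culture, the genotype and the time, and they were 4 of the 24 arrays of the series, 2 at 6 h and 2 at 0 h. Levels on these arrays were compared further with 2 CTX KO arrays at 1 h, with CTX wild-type (WT) cultures at 6 h and 0 h, and with KO cultures from the medial ganglionic eminence (MGE), the embryonic source of inhibitory neurons, at 6 h and 0 h, each group with 2 arrays. Every group came from littermate C57Bl/6 mouse embryos at embryonic day 14. All cells were kept for 10 days in culture and were silenced overnight with TTX, a sodium channel blocker, and AP-5, an NMDA receptor antagonist, so the 0 h groups carry the silencing too. Depolarization was with 55 mM KCl. The labels call the mutants Npas4 KO without describing the allele, and do not say whether the 2 arrays of a group came from separate cultures or animals, so the p-values measure the spread between these samples, which may be technical.

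Membrane depolarization opens voltage-gated calcium channels, and calcium entry activates kinases that act on factors already bound at activity-responsive genes, among them CREB and SRF. A first set of genes, largely transcription factors such as Fos and Egr1, is switched on within minutes and without new protein. A later set, which includes secreted factors and synaptic proteins, follows over hours. Npas4, a basic helix-loop-helix PAS transcription factor, belongs to the first set, and the series asks which later genes need it. The CTX KO cultures show the late response that remained in its absence.

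Messenger RNA was measured as 1 intensity per probe set, given below as log2, and 12378 genes whose probe set exceeded the array median on at least 2 arrays were tested. The median lay at a log2 intensity between 6.84 and 6.92. A level below it was not shown to be above background, and a fold change against such a level is approximate. Across genes the 2 arrays correlated at 0.98 in CTX KO at 6 h and at 0.991 in CTX KO at 0 h, with 464 genes over 2-fold apart at 6 h and 162 at 0 h. Genes of cortical projection neurons were well above the median, which fits the CTX label. Neurod6, a transcription factor of such neurons, stood at 12.49 and 12.47 at 6 h and at 12.21 and 12.38 at 0 h. Tbr1, of deep-layer neurons, stood at 12.13 and 12.22 at 6 h and at 11.54 and 11.78 at 0 h. Interneuron genes were present as well, with Gad1, a GABA-synthesizing enzyme, at 11.63 and 11.56 at 6 h and at 10.93 and 10.85 at 0 h. In such bulk RNA, fewer cells of a type and less RNA per cell cannot be told apart.

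Npas4 itself remained low in the KO cultures but was not flat. Its log2 intensity was 7.76 and 7.82 at 6 h, 6.80 and 6.85 at 1 h, against 5.82 and 5.78 at 0 h on the CTX KO arrays. In CTX KO cultures it therefore stood 1.98 ± 0.25 higher at 6 h than at 0 h on the log2 scale (adjusted p = 2.8e-05). In CTX WT cultures the change over 6 h was 5.92, and the difference between the genotypes was -3.94 ± 0.35 (adjusted p = 0.00023). Npas4 has 1 probe set here, and whether it lies in the deleted stretch was not settled, so the residual rise checks the label only in part.

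Over 6 h of KCl 4482 of the 12378 genes were called in the CTX KO cultures at an adjusted p under 0.05. Of these 1395 were higher at 6 h, 11.3 percent of the genes tested, and 3087 were lower, 24.9 percent. Among them 616 rose and 1456 fell at least 2-fold, and 162 rose and 201 fell at least 4-fold. The 2 arrays at 6 h lay outside the range of the 2 at 0 h for all of these genes. A call largely requires such a gap, so this is no further support, and the share over all genes tested is not given here. The split depends on the scaling: with cyclic loess in place of the deposited scaling 2118 genes were called higher and 2195 lower, a share of 49.1 percent higher against 31.1 percent. The median change of all genes was -0.11 on the deposited scale and 0.04 after cyclic loess, and the changes below are read against -0.11. The plot of levels by time shows genes of several kinds on each KO array.

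**Figure D1:**
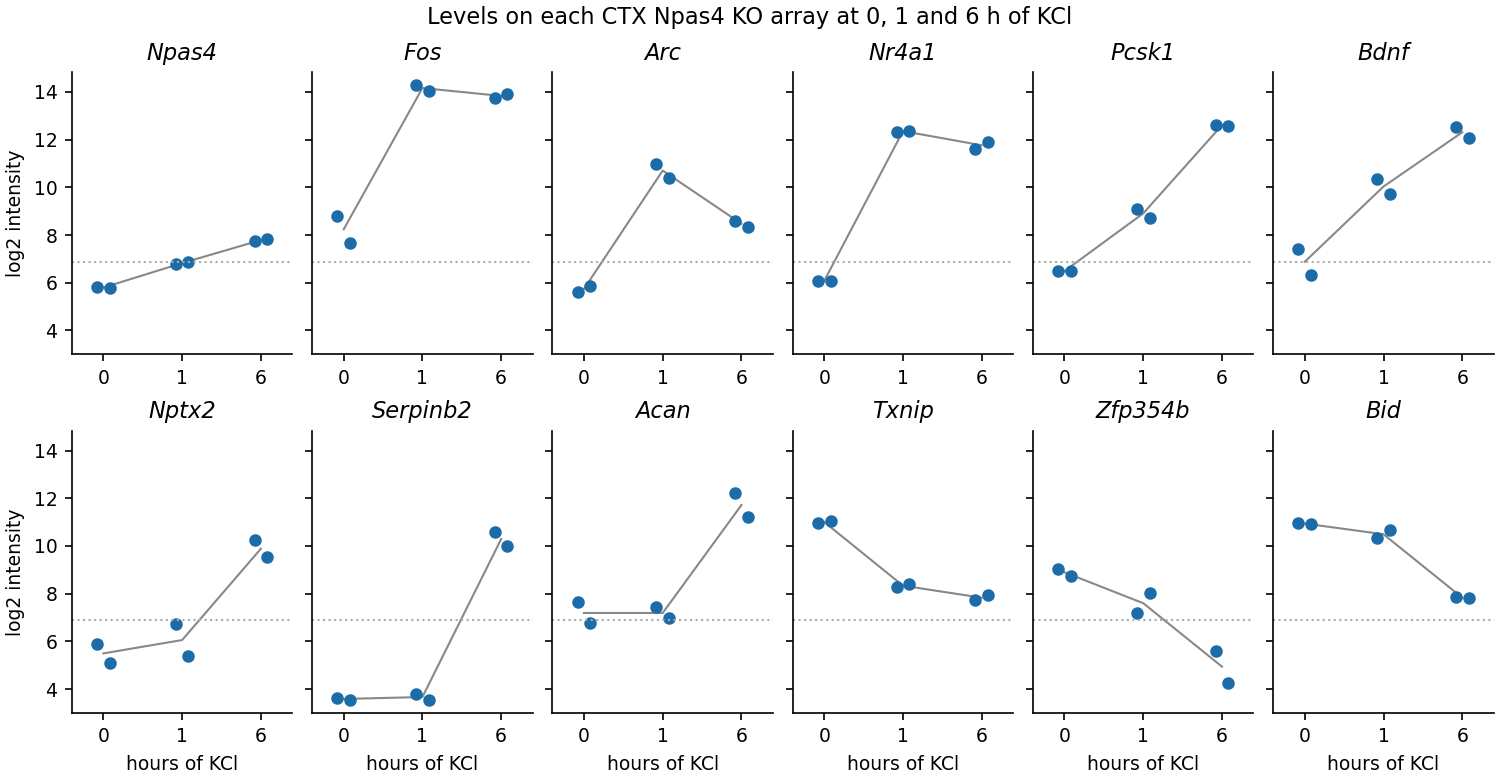
Log2 intensity (vertical axis) of 12 genes on each CTX Npas4 KO array after 0, 1 and 6 h of KCl (horizontal axis). Points are arrays, 2 at each time, grey lines join their means and the dotted line marks the array median; Fos and Nr4a1 were near their highest level by 1 h, Serpinb2 and Acan were high only at 6 h, and Zfp354b and Bid were lowest at 6 h.

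Transcription factors of the rapid response were still high after 6 h without Npas4. Of 22 rapid-response genes tested, 18 were called higher and 0 lower, and their median change was 2.25. The share called higher was 81.8 percent, against 11.3 percent of all genes. Fosb, a partner of Jun proteins in the AP-1 factor, had log2 intensities of 12.25 and 12.88 at 6 h and of 5.55 and 5.42 at 0 h, a rise of 7.09 ± 0.43 (adjusted p = 7.9e-08). Fos, the founding member of that family, stood at 13.76 and 13.91 at 6 h and at 8.82 and 7.66 at 0 h, 48.4-fold higher. Nr4a1, an orphan nuclear receptor, stood at 11.62 and 11.91 at 6 h and at 6.08 and 6.08 at 0 h, 5.69 ± 0.23. These 3 genes were picked among the largest rises whose 6 h and 0 h arrays did not overlap, so that gap is no further support. Fosb and Nr4a1 were below the array median at 0 h, so their folds are approximate. Egr2, a zinc finger factor, rose by 4.42 ± 0.27, Klf4, a Krueppel-like factor, by 4.48 ± 0.62, and Fosl1, another Fos relative, by 4.29 ± 0.63. Maff, a small Maf factor without an activation domain, rose by 4.43 ± 0.32 and Crem, which encodes CREB-like activators and the repressor ICER, by 4.22 ± 0.28. Prox1, a homeobox factor, rose by 4.88 ± 0.69.

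Rapid-response genes differed in how much of their level at 1 h was left at 6 h. Arc, whose protein acts at synapses, was at 8.60 and 8.35 at 6 h, at 11.00 and 10.41 at 1 h and at 5.6 and 5.88 at 0 h. Its change between 6 h and 1 h was -2.23 ± 0.34, and that between 6 h and 0 h 2.74 ± 0.34. Egr1 stood at 13.20 and 13.55 at 6 h, at 14.34 and 14.07 at 1 h and at 10.84 and 10.70 at 0 h. Junb, named after its values were seen, was lower at 6 h than at 1 h, with a change of -1.62 (adjusted p = 0.0028). For Fos the change between 6 h and 1 h was -0.33 ± 0.36 and for Fosb -0.59 ± 0.43, neither called. Jun, Ier3, Ier5 and Nr4a2, named after their values were seen, were the 4 members not called over 6 h, at -0.76, 0.69, -0.08 and 0.99. For Nr4a2 this was the probe set used for the gene (0.99 ± 0.47). Other Nr4a2 probe sets were called higher, at 2.23 ± 0.28, 2.83 ± 0.33 and 2.74 ± 0.29, and a further one was not (0.20). Without the second 6 h array 1 member was called lower.

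RefSeq promoter windows (GRCm38.p6, 250 bases before to 50 after a transcript's start) were available for 10016 of the genes tested. They are shown for 3 genes with the full cAMP response element and for 3 with its shorter core alone, since CREB, which binds it, is a known route from calcium to these genes. The full element is TGACGTCA and the core TGACG, each searched on both strands, so every full element also holds the core on each strand. In the sequences below, 5′ to 3′ on the gene's strand, capitals mark the full element in Pcsk1 (chr13:75089607-75089906, plus strand), Maff (chr15:79347270-79347569, plus strand) and Sst (chr16:23890795-23891094, minus strand). They mark the core, or its reverse complement, in Fos (chr12:85473640-85473939, plus strand), Nr4a1 (chr15:101266596-101266895, plus strand) and Bdnf (chr2:109692186-109692485, plus strand). Maff has 3 windows and Bdnf 7, and the window that holds the match is the one given.
Pcsk1: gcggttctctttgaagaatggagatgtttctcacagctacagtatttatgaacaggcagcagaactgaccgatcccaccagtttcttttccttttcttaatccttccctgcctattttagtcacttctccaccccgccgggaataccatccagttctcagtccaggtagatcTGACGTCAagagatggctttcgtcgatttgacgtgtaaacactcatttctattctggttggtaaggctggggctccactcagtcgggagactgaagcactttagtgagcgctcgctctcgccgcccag
Maff: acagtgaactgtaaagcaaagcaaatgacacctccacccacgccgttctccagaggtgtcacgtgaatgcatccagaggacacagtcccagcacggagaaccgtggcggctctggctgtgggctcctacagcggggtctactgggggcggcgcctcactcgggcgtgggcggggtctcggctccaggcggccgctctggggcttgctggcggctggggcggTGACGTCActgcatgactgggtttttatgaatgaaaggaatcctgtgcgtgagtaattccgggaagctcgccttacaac
Sst: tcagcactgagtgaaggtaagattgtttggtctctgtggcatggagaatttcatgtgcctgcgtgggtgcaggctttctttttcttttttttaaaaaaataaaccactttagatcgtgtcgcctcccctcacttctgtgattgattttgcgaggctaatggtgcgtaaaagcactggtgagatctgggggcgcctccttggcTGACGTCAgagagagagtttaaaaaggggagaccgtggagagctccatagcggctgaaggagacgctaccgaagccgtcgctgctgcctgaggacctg
Fos: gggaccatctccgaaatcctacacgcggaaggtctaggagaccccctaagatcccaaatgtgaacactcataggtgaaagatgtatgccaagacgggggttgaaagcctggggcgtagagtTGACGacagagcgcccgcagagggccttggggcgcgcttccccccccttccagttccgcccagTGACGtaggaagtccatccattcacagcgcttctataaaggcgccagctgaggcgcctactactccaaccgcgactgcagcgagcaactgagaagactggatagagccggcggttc
Nr4a1: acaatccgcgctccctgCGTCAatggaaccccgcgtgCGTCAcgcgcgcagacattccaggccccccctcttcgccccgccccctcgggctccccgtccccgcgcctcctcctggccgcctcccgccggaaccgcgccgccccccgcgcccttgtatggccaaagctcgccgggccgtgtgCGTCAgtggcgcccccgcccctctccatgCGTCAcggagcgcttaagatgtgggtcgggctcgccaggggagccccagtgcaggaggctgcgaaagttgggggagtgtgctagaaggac
Bdnf: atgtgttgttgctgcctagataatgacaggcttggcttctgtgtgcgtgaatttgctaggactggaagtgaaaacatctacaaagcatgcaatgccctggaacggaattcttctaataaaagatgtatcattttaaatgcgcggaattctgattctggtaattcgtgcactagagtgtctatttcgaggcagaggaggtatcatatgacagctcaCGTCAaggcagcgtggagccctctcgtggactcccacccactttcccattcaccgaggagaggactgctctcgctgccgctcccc
The full element began 78 bases before the start of Pcsk1, 29 before that of Maff and 48 before that of Sst. At least 1 window held the full element in 95 of 1114 genes called higher at 6 h (8.53 percent), in 62 of 2530 called lower (2.45 percent) and in 365 of the 10016 genes tested (3.64 percent). Counted by window and not by gene, the share was 1.79 percent of all 32851 windows of this length, which include genes not tested. A gene can have several windows, so shares of windows and of genes are not on the same footing. The core was in 48.1 percent of the genes called higher, 32.6 percent of those called lower and 35.8 percent of those tested. Counted by window, it was in 20.8 percent of all windows. The AP-1 element TGANTCA was in 5.75 percent of the genes called higher, 4.62 percent of those called lower and 5.82 percent of those tested. The E-box CACGTG was in 11.6 percent of the genes called higher, 13.1 percent of those called lower and 11.6 percent of those tested. Of the 20 genes with the largest rise 13 had a window, 3 of them, Kif18a, Maff and Pcsk1, with the full element and 9 with the core. These shares describe letters in the windows and were not tested.

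Secreted proteins, neuropeptides and growth factors rose broadly in the KO cultures. Of 22 tested, 16 were called higher and 0 lower, with a median change of 1.79. The share called higher was 72.7 percent, against 11.3 percent of all genes. Serpinb2, a plasminogen activator inhibitor, had log2 intensities of 10.60 and 9.98 at 6 h, 3.79 and 3.54 at 1 h, against 3.61 and 3.56 at 0 h, a rise over 6 h of 6.71 ± 0.29 (adjusted p = 3.3e-09) from a level below the array median. Bdnf, the neurotrophin that binds TrkB, stood at 12.55 and 12.07 at 6 h, at 10.35 and 9.72 at 1 h and at 7.42 and 6.34 at 0 h. The 1 h arrays of Bdnf lay between those at 6 h and at 0 h, and its level was 43.1-fold higher at 6 h than at 0 h. Nptx2, a pentraxin that gathers AMPA receptors at excitatory synapses, stood at 10.24 and 9.53 at 6 h, at 6.71 and 5.40 at 1 h and at 5.88 and 5.11 at 0 h. Its rise over 6 h was 4.39 ± 0.60, and its change at 1 h was 0.56, not called. Among peptide precursors, Crh, for corticotropin-releasing hormone, rose by 4.52 ± 0.84, Vgf by 4.2 ± 0.43 and Pnoc, for nociceptin, by 3.09 ± 0.63. Penk, for enkephalins, and Inhba, for the activin A subunit, were named after their values were seen and rose by 2.13 ± 0.37 and 1.85 ± 0.39.

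Somatostatin (Sst), a peptide of inhibitory neurons, was at 12.71 and 12.54 at 6 h and at 11.71 and 11.46 at 0 h, a rise of 1.04 ± 0.29 (adjusted p = 0.011). Its call was lost without the first array at 6 h (0.95, adjusted p = 0.067) or without the second at 0 h (0.92, adjusted p = 0.085). Of the 6 members not called, Nptx1, Igf1 and Tac1 had changes of 1.03, 0.90 and 0.74. Those of Cck, Hbegf and Nrg1 were 0.14, -0.12 and -0.24. A dimmer Nptx1 probe set was called higher (1.36 ± 0.30, adjusted p = 0.0021 over the probe sets), from a level below the array median. Acan, the core protein of the perineuronal matrix proteoglycan aggrecan, is not on the list but was among the 20 largest rises. It had 12.20 and 11.23 at 6 h, 7.42 and 6.96 at 1 h, against 7.63 and 6.75 at 0 h, a rise of 4.52 ± 0.59, and its 1 h and 0 h arrays overlapped. Calcrl, the receptor for calcitonin gene-related peptide and adrenomedullin, rose by 4.18 ± 0.77, with a change at 1 h of 0.04.

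Machinery that packs and cuts these peptides changed mainly through 2 enzymes. Pcsk1, the prohormone convertase that cleaves precursors in secretory granules, stood at 12.63 and 12.59 at 6 h, at 9.09 and 8.73 at 1 h and at 6.50 and 6.48 at 0 h. Its rise was 6.11 ± 0.46 (adjusted p = 3.4e-07), against a 0 h level below the array median. Pam, which amidates peptide ends, stood at 10.74 and 10.77 at 6 h and at 8.05 and 8.06 at 0 h, 6.50-fold higher. Of 12 granule genes tested 5 were called higher (41.7 percent, against 11.3 percent of all genes) and 0 lower, with a median of 0.27. The other 3 calls, Ptprn, Chga and Scg3, were small (0.73, 0.36 and 0.35). With any 1 of the 4 arrays left out 2 to 3 genes of the list were called, and each of these 3 calls was lost without at least 1 array (Ptprn 0.56 to 0.64, Chga 0.34 to 0.37, Scg3 0.33 to 0.36).

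**Figure D2:**
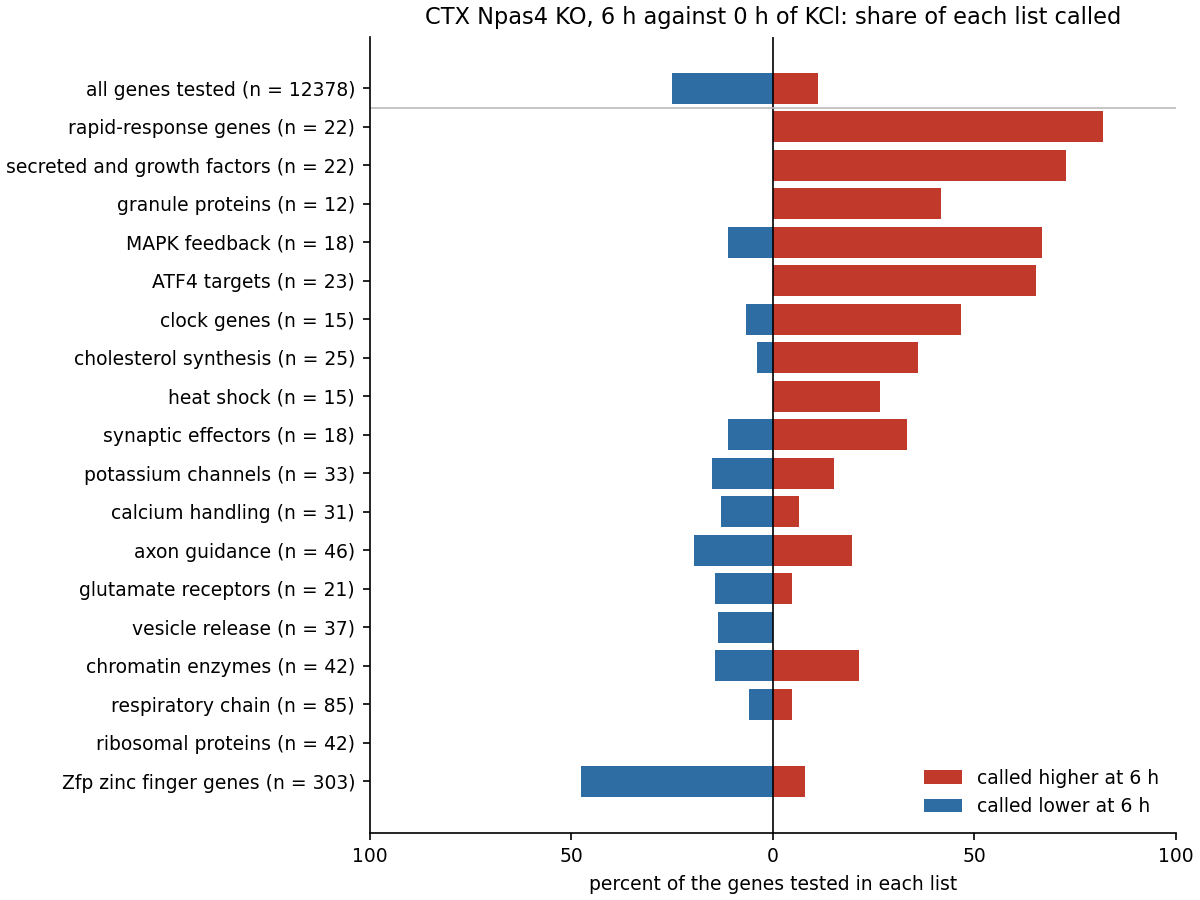
Share of the tested genes of each list (horizontal axis, percent) called higher (red, right) or lower (blue, left) in CTX Npas4 KO cultures at 6 h than at 0 h, with all 12378 tested genes on top. Among rapid-response genes 18 of 22 were called higher, among secreted factors 16 of 22, among MAP kinase feedback genes 12 of 18 and among ATF4 genes 15 of 23, and among Zfp genes 144 of 303 were called lower.

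Inhibitors of the signalling that starts the response rose with it. Of 18 MAP kinase phosphatases and Ras-ERK inhibitors tested, 12 were called higher and 2 lower, with a median of 1.21. The shares were 66.7 and 11.1 percent, against 11.3 and 24.9 percent of all genes. Dusp14 stood at 10.12 and 10.38 at 6 h and at 7.17 and 6.62 at 0 h, 10.2-fold higher. Dusp16, which acts on JNK and p38, rose by 3.29 ± 0.35, Dusp4 by 3.16 ± 0.42 and Dusp5 by 3.05 ± 0.58, both of these acting on ERK in the nucleus. Dusp6, which acts on ERK in the cytoplasm, rose by 1.94 ± 0.34, and Spry4, a Sprouty inhibitor of growth factor signalling, by 3.28 ± 0.32. Dusp5 and Dusp6 were already high at 1 h, with a change between 6 h and 1 h of -0.28 and -0.33 (neither called), while Dusp14, Dusp16, Dusp4 and Spry4 rose further by 2.88, 2.80, 2.17 and 2.25. The 2 members called lower, Dusp7 (-0.95) and Dusp2 (-0.69), were named after their values were seen. Dusp7 lost its call without the second 6 h array (-0.63, adjusted p = 0.057), and Dusp2 without that array (-0.58, adjusted p = 0.11) or without either 0 h array (-0.73 and -0.65).

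In the cAMP and CREB pathway, 3 of 18 genes were called higher and 4 lower, and the median was -0.04. These shares were 16.7 and 22.2 percent, against 11.3 and 24.9 percent of all genes, and with the mean of probe sets 7 of 15 were called higher and 3 lower. Beside Crem, Sik1, a kinase that holds CREB coactivators in the cytoplasm, rose by 2.11 ± 0.25, and Sik2, a related kinase, by 0.83 ± 0.10. The coactivator genes Crtc3 and Crtc1 fell, with changes of -0.84 and -0.68 (adjusted p = 0.0014 and 0.003). Of the 4 calls lower, 2 were left without the second 6 h or the first 0 h array. Among small GTPases and regulators of G protein signalling 5 of 19 rose and 1 fell, 26.3 and 5.26 percent. Gem, an RGK protein that inhibits calcium channels, stood at 8.21 and 8.94 at 6 h and at 4.16 and 3.92 at 0 h, 4.54 ± 0.37, and its relative Rem2 at 10.88 and 10.94 at 6 h and at 7.87 and 8.02 at 0 h, 7.83-fold higher. Rgs2, Rgs10 and Rgs4, which speed the shut-off of G proteins, rose by 1.61, 1.27 and 1.09. Rnd1 was the gene called lower (-0.88), and it lost that call when any 1 of the 4 arrays was left out (-0.83 to -0.94).

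Among receptors and release machinery, 1 of 21 glutamate receptor genes was called higher and 3 lower, 1 of 12 GABA synapse genes higher and 0 lower, and 0 of 37 vesicle release genes higher and 5 lower. The shares called lower were 14.3 percent of the glutamate receptor genes and 13.5 percent of the vesicle release genes, against 24.9 percent of all genes. The shares called higher were 4.76 percent of the glutamate receptor genes and 8.33 percent of the GABA synapse genes, against 11.3 percent of all genes. With the mean of probe sets the vesicle release genes had 5 called higher and 3 lower, and the glutamate receptor genes 4 higher and 2 lower. Without the first 6 h array 1 glutamate receptor gene was called lower, without the second 5. The single rises, Cacng3 (0.71) and Gphn (0.40), were lost, Cacng3 without the second 6 h or the first 0 h array (0.66 and 0.65) and Gphn without any 1 of the 4 (0.37 to 0.44). The vesicle release genes called lower numbered 1 without the second 0 h array and 3 without any 1 of the other 3. Gria1 and Gria2, the main AMPA receptor subunits and named after their values were seen, had changes of 0.08 and -0.13, neither called. Sv2b, a synaptic vesicle glycoprotein, was the vesicle gene with the largest change. It stood at 9.40 and 9.86 at 6 h and at 11.53 and 11.66 at 0 h, a log2 change of -1.97 (adjusted p = 0.00035). Its relative Sv2c moved the other way, at 7.43 and 7.26 at 6 h and at 4.62 and 5.0 at 0 h, 2.54 ± 0.26.

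Of 33 potassium channel genes 5 were called higher and 5 lower, 15.2 percent each way against 11.3 and 24.9 percent of all genes, and after cyclic loess 10 were called higher and 3 lower. Kcnf1, a silent subunit that modifies Kv2 channels, stood at 13.00 and 13.04 at 6 h and at 10.82 and 11.25 at 0 h, 3.95-fold higher. Kcnn3, a calcium-gated SK channel, rose by 1.60 ± 0.14. The rises numbered 3 without the first 6 h array, and the falls 3, 2 and 3 without the second 6 h, the first 0 h and the second 0 h array. Of 31 calcium-handling genes 2 were called higher, 0 to 1 with any 1 array left out, and 4 lower. The shares of that list were 6.45 percent higher and 12.9 percent lower, both below those of all genes on this setting. With the mean of probe sets 5 of 30 were called higher and 4 lower, and after cyclic loess 4 of 31 higher and 3 lower. Cacna1d, an L-type calcium channel subunit, fell by 0.94 (adjusted p = 0.0011), and Slc8a3, a sodium-calcium exchanger, fell by 0.53 (adjusted p = 0.0028). Scn2b, a sodium channel beta subunit and the only call among 9 sodium and HCN channel genes, fell by 1.13 (adjusted p = 4.3e-05).

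Of 18 other synaptic effectors 6 were called higher and 2 lower, 33.3 and 11.1 percent against 11.3 and 24.9 percent of all genes. Fewer were called lower without the second 0 h array. Ptgs2, the inducible cyclooxygenase, stood at 8.31 and 8.85 at 6 h and at 4.28 and 6.67 at 0 h. Its 0 h arrays were far apart, and its rise of 3.10 ± 0.68 was 1.91 without the first 0 h array. Rasgrp1, a Ras activator, rose by 2.31 ± 0.33 and Plk3, a Polo-like kinase, by 1.44 ± 0.24. Plk2, a related kinase that activity is known to induce, had a change of -0.13 ± 0.41 and was not called. Of 46 axon guidance genes 9 were called higher and 9 lower, 19.6 percent each way against 11.3 and 24.9 percent of all genes. In a fit of only the arrays compared 5 were called higher and 10 lower, and 4 were called higher without the first 6 h or the first 0 h array. Efna5, an ephrin, rose by 1.43 ± 0.25, and Plxna2, a semaphorin receptor, Sema4f, a semaphorin, and Efna2, another ephrin, fell, with changes of -1.33, -1.14 and -1.06. Among cadherins and protocadherins 3 of 40 rose and 1 fell, 7.5 and 2.5 percent, both below the shares of all genes. The rises depended on the setting. With the mean of probe sets 9 of 35 were called higher and 0 lower, and after cyclic loess 6 of 40 higher and 0 lower. On the main setting the 3 rises were led by Pcdh18 (2.34 ± 0.41) and Pcdh17 (1.60 ± 0.24), both of the non-clustered kind. The fall lost its call without the second 6 h array.

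Genes of the ATF4 response, which cells switch on when amino acids are short or the endoplasmic reticulum is loaded, rose in most cases. Of 23 tested 15 were called higher and 0 lower, with a median of 0.64, and 6 to 13 were called with 1 array left out, 6 without the second 0 h array and 8 without the first 6 h array. With all arrays the share of that list called higher was 65.2 percent, against 11.3 percent of all genes. Psph, which makes serine, stood at 11.98 and 11.71 at 6 h and at 9.57 and 9.21 at 0 h, 2.46 ± 0.37. Sesn2, which restrains mTORC1, rose by 2.3 ± 0.33 and Mthfd2, a mitochondrial folate enzyme, by 2.02 ± 0.31, all 3 with changes of at most 0.28 at 1 h. Of 18 genes listed for endoplasmic reticulum chaperones 3 were called higher and 1 lower, 16.7 and 5.56 percent against 11.3 and 24.9 percent of all genes. Herpud1, an endoplasmic reticulum degradation protein, rose by 1.80 ± 0.24 and Hspa5, its main chaperone (BiP), by 0.73 ± 0.13. Of 15 cytosolic heat shock genes 4 rose and 0 fell, 26.7 and 0 percent against 11.3 and 24.9 percent of all genes. These rises were led by Hspb8, a small heat shock protein, at 10.09 and 9.70 at 6 h and at 7.63 and 7.14 at 0 h (2.51 ± 0.47).

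Among 15 circadian clock genes 7 were called higher and 1 lower, 46.7 and 6.67 percent against 11.3 and 24.9 percent of all genes. Per1, a repressor in the clock loop whose promoter CREB is known to act on, stood at 11.57 and 11.71 at 6 h, at 10.49 and 10.26 at 1 h and at 9.15 and 8.91 at 0 h, 6.10-fold higher over 6 h. Per2 stood at 10.97 and 10.97 at 6 h, at 8.89 and 8.50 at 1 h and at 8.60 and 8.60 at 0 h, so that its rise of 2.37 ± 0.31 came after the first hour. Nfil3, a repressor of clock output genes, rose by 2.39 ± 0.15, Cry2, another repressor in the loop, by 1.28 ± 0.20, and Hlf, a clock output factor, by 1.33 ± 0.27. Dbp, a relative of Hlf, was the gene called lower (-1.23), a call lost without the second 6 h array (-0.85, adjusted p = 0.092) or the first 0 h array (-1.09, adjusted p = 0.056).

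Of 14 other genes of the bHLH-PAS family and its coactivators, to which Npas4 belongs, 2 were called higher and 1 lower. These were 14.3 and 7.14 percent, against 11.3 and 24.9 percent of all genes. Clock rose by 1.08 ± 0.28 and Arnt, a dimer partner of PAS factors including Npas4, by 1.00 ± 0.23. The Clock call was lost without the first 6 h array (0.87, adjusted p = 0.072) or the second 0 h array (1.02, adjusted p = 0.05). Ncoa1, a coactivator, fell by 0.64 on the log2 scale (adjusted p = 7.3e-05). With the mean of its probe sets the change was -0.22 and was not called (adjusted p = 0.12). Npas1, Npas2 and Npas3, other members of the family, had changes of -0.19, 0.34 and -0.15, none of them called. Of 18 Klf, Maf and Bach factors 5 rose and 4 fell, with 1 to 2 falls left when any 1 array was left out. The shares of that list were 27.8 percent higher and 22.2 percent lower, the latter near the share of all genes. Beside Maff, Klf9 rose by 1.88 ± 0.31, Mafk, another small Maf factor, by 1.34 ± 0.32 and Klf5 by 1.25 ± 0.25.

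Gadd45g and Gadd45b, stress-linked proteins with roles in growth arrest, rose by 3.15 ± 0.31 and 2.23 ± 0.40. Cdkn1a, the cell cycle inhibitor p21, rose by 1.43 ± 0.19, whereas Foxo1, a transcription factor held back by growth factor signalling, fell by 1.29 (adjusted p = 0.0017). In that growth arrest list 6 of 20 genes rose and 3 fell. In cholesterol synthesis 9 of 25 rose and 1 fell, 36.0 and 4.0 percent against the same shares of all genes. The fall was that of Dhcr7 (-0.36), a call lost without the first 6 h array or either 0 h array. Sc5d and Pmvk, 2 enzymes of the pathway, rose by 1.65 ± 0.13 and 1.22 ± 0.12. With the mean of its probe sets Sc5d changed by 0.42 and was not called (adjusted p = 0.26). Among glycolysis genes 3 of 22 rose and 2 fell, 13.6 and 9.09 percent against 11.3 and 24.9 percent of all genes. Fewer were called lower without the first or the second 0 h array. Pfkfb4, a regulator of glycolytic flux, fell by 1.32 (adjusted p = 1.4e-05). Of 85 respiratory chain genes 4 rose and 5 fell, with a median of -0.01. The shares of that list, 4.71 and 5.88 percent, were below those of all genes, and both counts shrank with any 1 array left out. Of 42 ribosomal protein genes 0 were called either way, with a median of 0.03.

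The falls were led by zinc finger genes. Of 303 Zfp genes tested, whose products mostly bind DNA and often repress it, 144 were called lower and 24 higher, with a median change of -0.59 against -0.11 for all genes. That is 47.5 percent called lower against 24.9 percent of all genes tested. After cyclic loess 105 were called lower and 36 higher, with a median of -0.39. Zfp354b had log2 intensities of 5.61 and 4.27 at 6 h, 7.17 and 8.03 at 1 h, against 9.05 and 8.74 at 0 h, a change of -3.96 (adjusted p = 2.2e-05). Zfp759, Zfp94, Zfp213, Zfp493 and Zfp113 were lower, with changes of -3.59, -3.55, -3.44, -3.27 and -3.26, as were the related zinc finger genes Zkscan4 and Zkscan7, with changes of -3.49 and -3.16. All of these were below the array median at 6 h, so the size of their falls is approximate. With 1 array left out 99 to 150 Zfp genes were called lower, and 15 higher without the second 0 h array.

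Other genes among the 20 largest falls had varied roles. Txnip, which binds thioredoxin and lowers glucose uptake, stood at 7.73 and 7.93 at 6 h, at 8.28 and 8.39 at 1 h and at 10.97 and 11.04 at 0 h. Its change at 1 h was -2.68, not called, and its change over 6 h was -3.18 (adjusted p = 0.0013). Bid, a pro-apoptotic member of the Bcl2 family, stood at 7.86 and 7.80 at 6 h, at 10.33 and 10.65 at 1 h and at 10.98 and 10.90 at 0 h, 8.63-fold lower. Ttc30b, of the transport complex of cilia, Senp8, which removes NEDD8, and Tefm, the mitochondrial transcription elongation factor, fell, with changes of -3.43, -2.97 and -2.95. Dnmt3b, a DNA methyltransferase, was the chromatin gene with the largest change, at 5.33 and 5.05 at 6 h and at 7.07 and 7.21 at 0 h, 3.86-fold lower. Of 42 histone and DNA modifying enzymes 9 rose and 6 fell (3 without the second 0 h array), 21.4 and 14.3 percent against 11.3 and 24.9 percent of all genes. The rises included Kdm3a (1.30 ± 0.12) and Kdm2a (1.08 ± 0.13), histone demethylases, and Tet3 (1.23 ± 0.27), which oxidizes methylated DNA.

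Different probe sets of a gene did not always move together, a pattern looked at after Homer1 was seen. The brightest Homer1 probe set, used to stand for the gene, had 12.01 and 12.24 at 6 h, against 12.15 and 12.18 at 0 h, a change of -0.04 ± 0.18. Another Homer1 probe set had 10.47 and 10.38 at 6 h, 7.29 and 6.33 at 1 h, against 5.0 and 4.72 at 0 h, a rise of 5.56 ± 0.41 (adjusted p = 2e-07 over the probe sets). A pair of further ones rose by 2.38 ± 0.20 and 2.21 ± 0.28. Homer1 is a postsynaptic scaffold whose gene also makes a short form, Homer1a, that activity induces, but which transcript each probe set reads was not settled here. Of 22694 probe sets of single genes tested, 3646 were called higher (16.1 percent) and 4943 lower (21.8 percent). Of 5968 genes with 2 or more such probe sets, 256 had probe sets called in opposite directions in CTX KO cultures, 4.29 percent, and 40 had at least 2-fold changes both ways. Mllt3, a subunit of the super elongation complex, had probe sets at 2.28 ± 0.39 and -1.82 ± 0.35. Nedd4l, a ubiquitin ligase, had 4 probe sets that fell (-2.10 to -2.46) and 2 that rose (0.86 and 0.87). Rims2, of the release site, had 2 that rose, by 2.42 and 1.29, and the one used for the gene, which fell (-0.72). That fall was lost without the second 6 h array or either 0 h array (-0.64 to -0.73). In CTX WT cultures, which share no array with the KO cultures, 244 genes had opposed probe sets, and 185 were in both sets, 72.3 percent of those in KO and 75.8 percent of those in WT.

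**Figure D3:**
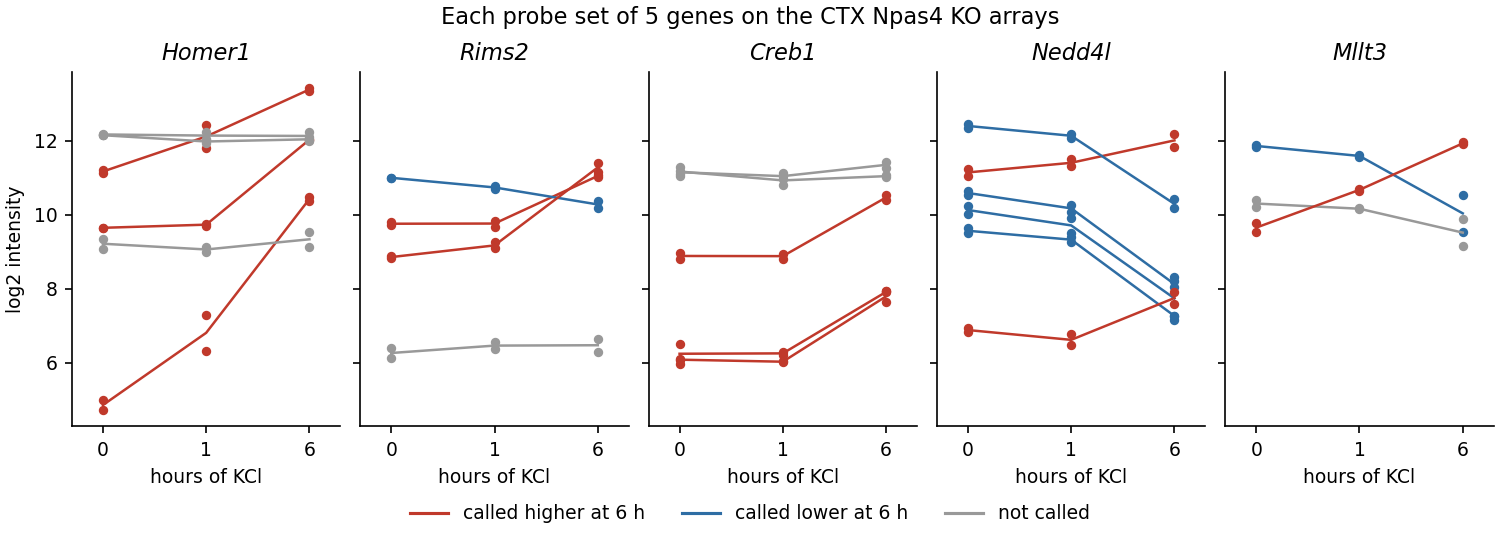
Log2 intensity (vertical axis) of every tested probe set of 5 genes on the CTX Npas4 KO arrays at 0, 1 and 6 h of KCl (horizontal axis). Points are arrays and lines join means, red for probe sets called higher at 6 h than at 0 h, blue for lower and grey for not called; Homer1 has 3 that rose and 3 that were not called.

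Far fewer genes were called after 1 h than after 6 h in the KO cultures. Between 6 h and 1 h 1106 genes were called higher (8.94 percent) and 2637 lower (21.3 percent), and between 1 h and 0 h 83 were called higher (0.671 percent) and 53 lower (0.428 percent). These contrasts share arrays with each other and with the 6 h to 0 h contrast. Without the second 1 h array 2249 genes in all were called between 6 h and 1 h, against 3743, and with any 1 of the 4 arrays left out 47 to 77 between 1 h and 0 h, against 136. After cyclic loess 48.3 percent of the calls between 6 h and 1 h were higher, against 29.5 percent on the deposited scale. The 10 largest rises between 6 h and 1 h were led by Serpinb2 (6.63), Acan (4.52), Calcrl (4.14), Nptx2 (3.83) and Baz1a (3.81), the last a subunit of chromatin remodelers. Baz1a stood at 11.17 and 10.67 at 6 h, at 7.27 and 6.96 at 1 h and at 6.89 and 6.51 at 0 h. Pcsk1 rose by 3.70, Zhx2, a zinc finger and homeobox factor, by 3.51 and Gfra1, a receptor for GDNF, by 3.31 over the same interval. Zhx2 stood at 11.63 and 12.42 at 6 h and at 8.31 and 8.72 at 1 h. The largest falls in that interval included Ccdc14 (-3.27), Zfp759 (-3.26), Ttc30b (-3.15) and Rad50, of the DNA break repair complex (-2.82). Rad50 stood at 5.68 and 5.69 at 6 h and at 8.36 and 8.66 at 1 h.

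Set against WT cultures, the late response of the KO cultures differed in 1 called gene, Npas4. The 2 WT arrays at 6 h agreed less well than the KO ones. They correlated at 0.965 across genes, with 980 genes over 2-fold apart, against 464 in KO at 6 h. The least alike pair of the series was MGE WT at 0 h (0.951, 1507 genes over 2-fold apart). That pair enters no comparison here but does enter the spread of each gene, and its effect on the standard errors was not tested. In CTX WT cultures 1297 genes were called higher at 6 h than at 0 h (10.5 percent) and 3065 lower (24.8 percent), 29.7 percent of the calls being higher against 48.1 percent after cyclic loess. Of the 4482 genes called in KO 3832 were also called in WT, 85.5 percent of the KO calls and 87.8 percent of the WT calls, and all 3832 had the same direction in both. Across the 12378 genes, which are not independent replicates, the changes in KO and in WT correlated at r = 0.956, with no array in common. The test of the difference between the responses called 0 genes higher and 1 lower in KO (0.00808 percent), with 120 genes at an unadjusted p under 0.05. It called 2 genes without the first WT array at 0 h. The 120 genes are fewer than a p under 0.05 gives by chance among 12378, so the test was cautious and can miss differences. Why it was cautious was not tested. A missed threshold does not show that responses were alike, so the interval of each difference was read. Its 95 percent interval lay within 2-fold either way for 8573 genes, 69.3 percent, and for 3295 of the 4482 genes called in KO, 73.5 percent. The test of KO against WT at 0 h called 0 genes, with 49 at an unadjusted p under 0.05, again fewer than by chance.

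Genes linked with Npas4 in earlier work were read in the same way. Of that list, drawn from studies of which 1 used these arrays and so no independent evidence, 3 of 7 genes were called higher in KO and 0 lower. The shares were 42.9 and 0 percent, against 11.3 and 24.9 percent of all genes. Bdnf rose by 5.43 in KO and by 5.38 in WT, a difference of 0.04 ± 0.64 with a 95 percent interval from -1.33 to 1.41. Nptx2 rose by 4.39 in KO and by 4.95 in WT, a difference of -0.57 ± 0.85 with an interval from -2.38 to 1.25. Csrnp1, a nuclear protein of the rapid response, rose by 2.19 in KO and by 3.77 in WT, a difference of -1.57 ± 0.44 with an interval from -2.52 to -0.62 (adjusted p = 1, unadjusted p = 0.0031). Mdm2, the ubiquitin ligase of p53, had changes of 0.27 in KO and 0.24 in WT, with an interval of the difference from -0.47 to 0.54. The next smallest p after Npas4 belonged to Gli2, a transcription factor of hedgehog signalling, named for this after its values were seen. It had 5.57 and 5.54 at 6 h, against 5.66 and 5.45 at 0 h in KO, and 7.08 and 7.20 at 6 h, against 5.77 and 5.14 at 0 h in WT, a difference of -1.68 ± 0.27 that did not pass (adjusted p = 0.12). The genes that followed Gli2 in order of p were Igf2bp1, Slc30a1 and Osgin2, also named after their values were seen. Their responses were lower in KO as well (-1.61, -1.04 and -0.90), and none passed. A probe set of Slc25a36, a mitochondrial carrier, passed when all probe sets were tested (-1.60 ± 0.21, adjusted p = 0.015), while the other 2 of that gene did not.

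**Figure D4:**
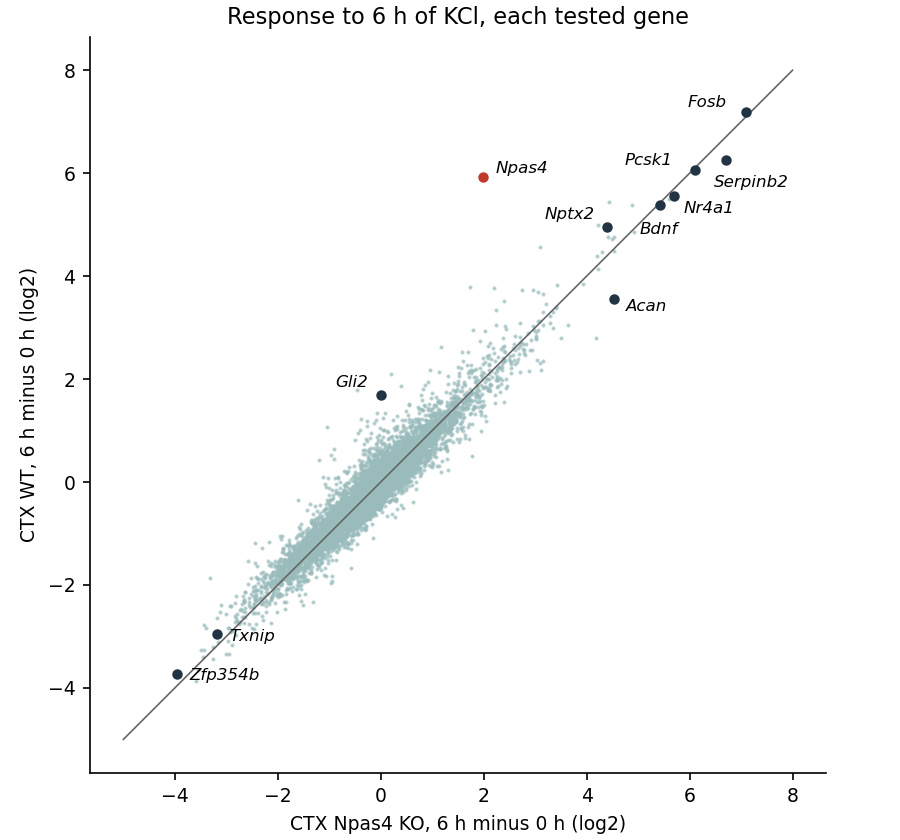
Change over 6 h of KCl in log2 units in CTX Npas4 KO cultures (horizontal axis) and in CTX WT cultures (vertical axis), 1 point for each of the 12378 genes tested, with the line of equal change. Most genes lie along the line (r = 0.956), and Npas4 (red), at 1.98 in KO and 5.92 in WT, stands off it.

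Over 6 h fewer genes were called in MGE cultures of the same genotype. In MGE KO cultures 599 genes were called higher at 6 h (4.84 percent) and 1519 lower (12.3 percent), 28.3 percent of the calls being higher against 47.1 percent after cyclic loess. With 1 array left out 1008 to 1470 were called against 2118, and 1008, 1052 and 1203 without the first at 0 h, the first at 6 h and the second at 6 h. Genes called in both cultures numbered 1557, 34.7 percent of the CTX KO calls and 73.5 percent of the MGE KO calls, and 1514 of them had the same direction. The test of the difference between the responses called 356 genes higher in CTX KO (2.88 percent) and 552 lower (4.46 percent). With 1 array left out 430 to 1125 genes were called against 908, the fewest without the second CTX KO array at 0 h. Counts of 450 to 587 were left without the first CTX KO array at 0 h, the second at 6 h or any 1 of the 4 MGE KO arrays.

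Several of the largest CTX KO rises were not called in MGE KO cultures. Serpinb2 rose by 6.71 in CTX KO, against 0.34 (not called) in MGE KO, a difference of 6.36 ± 0.41 (adjusted p = 2.5e-06). Bdnf rose by 5.43 in CTX KO, against 1.17 (not called) in MGE KO, a difference of 4.26 ± 0.64. Gem rose by 4.54 in CTX KO, against 0.35 (not called) in MGE KO, a difference of 4.19 ± 0.52. Egr2 rose by 4.42 in CTX KO and by 1.08 in MGE KO, a difference of 3.35 ± 0.38. Kif18a, a kinesin of the mitotic spindle, rose by 4.91 in CTX KO, with a difference of 4.48 ± 0.78. Prox1 and Klf4 differed by 4.43 ± 0.98 and 3.95 ± 0.88, and both calls were lost without the second CTX KO array at 6 h or at 0 h. Prox1 lost it also without the second MGE KO array at 6 h or the first at 0 h (3.71 to 4.13 over these), and Klf4 without the first MGE KO array at 6 h or the second at 0 h (3.11 to 3.95). Fosb rose in both, by 7.09 in CTX KO and 3.44 in MGE KO, a difference of 3.64 ± 0.61. Fos (5.6 and 4.68), Nr4a1 (5.69 and 4.99), Acan (4.52 and 4.82) and Psph (2.46 and 2.49) rose in both, with differences that were not called.

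Other genes had a lower response in CTX KO than in MGE KO cultures. Il21, a cytokine gene, was at 4.23 and 4.14 at 6 h and at 4.04 and 4.10 at 0 h in CTX KO, below the array median. It was called higher in MGE KO (3.46), and the difference of -3.35 ± 0.27 is approximate because the CTX KO level was not shown to be above background. Cacng5, an auxiliary AMPA receptor subunit, had a change of 0.52 (not called) in CTX KO and rose by 3.70 in MGE KO, a difference of -3.18 ± 0.38. Rspo3, an enhancer of Wnt signalling, rose by 1.00 in CTX KO and by 3.83 in MGE KO, a difference of -2.83 ± 0.48, and its CTX KO call was lost without the first array at 6 h or either at 0 h (0.73 to 1.15). Sv2b fell in CTX KO, against a change of 0.65 (not called) in MGE KO, a difference of -2.61 ± 0.48.

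**Figure D5:**
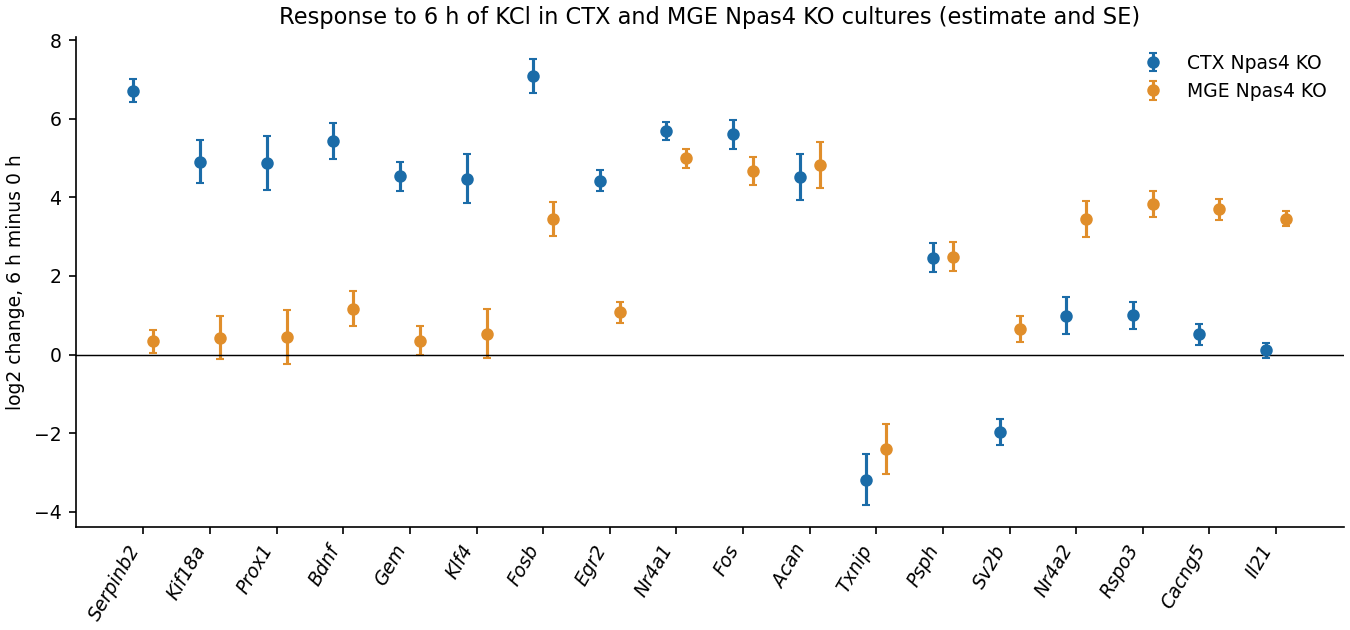
Change in log2 intensity over 6 h of KCl (vertical axis; estimate with standard error, 2 arrays at each time) of 18 genes in CTX Npas4 KO (blue) and MGE Npas4 KO (orange) cultures. Serpinb2, Bdnf and Gem were called higher in CTX KO but not in MGE KO, Nr4a1, Fos, Acan and Psph in both, and Cacng5 and Il21 in MGE KO but not in CTX KO.

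Markers of other cell types were compared as well. Of 13 projection neuron markers 1 rose and 3 fell in CTX KO cultures at 6 h. These were 7.69 and 23.1 percent, against 11.3 and 24.9 percent of all genes. Fezf2, of deep-layer neurons, rose by 1.16 ± 0.22, and Emx1, a factor of the dorsal forebrain, fell by 1.36 (adjusted p = 6.2e-05). Of the 3 falls 1 was left without the second 0 h array. Of 15 interneuron markers 4 were called higher, Sst, Gad2 (0.70), Npy (0.66) and Reln (0.40), and fewer with any 1 array left out. The 4 calls were 26.7 percent of those markers, against 11.3 percent of all genes. Of 7 microglial and 8 vascular markers tested 0 were called, 1 vascular marker being called lower without the second 6 h array. Of 10 microglial markers on the array 6 lay below the array median on all 4 arrays, C1qa at 5.62 and 5.48 at 6 h and at 5.71 and 5.63 at 0 h. Of 5 oligodendrocyte markers 1 was called lower, Mbp (-1.10), a call lost without the second 6 h array or either 0 h array (-0.95 to -1.17), and the 1 red blood cell gene tested was not called. Of 9 astrocyte markers 1 was called, Sox9, at 10.00 and 10.10 at 6 h and at 8.29 and 7.85 at 0 h (1.98 ± 0.45), while Gfap (0.01) and Aqp4 (0.13) were not. Of 8 progenitor markers 2 were called, Sox2 (1.75) and Pax6 (0.67). Sox2 lost its call without the first 6 h array (1.38) or the second 0 h array (1.19), and Pax6 without any 1 of the 4 (0.56 to 0.78). The proliferation markers Mki67, Top2a and Cdk1 had changes of 0.04, -0.04 and 0.01, none of them called. The mean log2 level of the astrocyte markers was 9.72 and 9.09 at 6 h, against 9.43 and 8.59 at 0 h, higher in the first array of each pair. That of the vascular and fibroblast markers was 7.49 and 8.49 at 6 h, against 7.50 and 8.49 at 0 h, higher in the second. Col1a2, a fibroblast collagen, showed this most, at 5.36 and 9.64 at 6 h and at 5.53 and 10.01 at 0 h. The part of these cells in the changes above was not tested.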

How the data were processed

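Total RNA (100 ng a sample) was amplified and hybridized to mouse expression arrays, 2 per group in 12 groups. The authors deposited 1 table of linear intensity values for 45101 probe sets, made with RMA per the submitters' processing notes, in which its version is not given. Here log2 of the intensity was taken with no further scaling. Of the probe sets, 34958 had a single gene symbol in the platform annotation, giving 18194 genes, each represented by its brightest probe set. Genes above the array median on at least 2 arrays (12378) were tested with limma 3.58.1 in R 4.3.3, in 1 fit of all 24 arrays and 12 groups with empirical Bayes moderation. A gene was called at a Benjamini-Hochberg adjusted p under 0.05 over all genes tested, and values after ± are standard errors of the fit. The scripts were tested on simulated data.

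The arrays, members and gene lists (37 lists) were chosen with earlier results of these data known. Named genes were a selection of Npas4, the 20 largest called rises and falls over 6 h, up to 6 called members of each list, the 10 largest called rises and falls between 6 h and 1 h, the 12 largest called differences each way between cultures, and a few well-known genes. Alternatives covered the scaling, the filter, the choice of probe set, an offset, an intensity trend, the arrays in the fit, a block for replicate number and leaving out each array. The analysis of every probe set was added after seeing the data. Array detection calls were not used, so precision rests on the 2 arrays a group. RefSeq promoter windows and symbols come from GRCm38.p6.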

Additional observations from a re-analysis of the deposited data

Results flagged for a closer look

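Each value here is a difference between 2 responses to 6 h of KCl in log2 units, tested as an interaction in the limma fit, and each passed an adjusted p under 0.05. Between genotypes, the response of Npas4 was -3.94 in CTX KO relative to CTX WT. Between CTX KO and MGE KO cultures, the response was higher in CTX KO by 6.36 for Serpinb2, 4.48 for Kif18a, 4.43 for Prox1, 4.26 for Bdnf, 4.19 for Gem, 3.95 for Klf4, 3.64 for Fosb and 3.35 for Egr2. The responses of Prox1 and Klf4 lost this call when any 1 of several arrays was left out (3.71 to 4.13 and 3.11 to 3.95). The response was lower in CTX KO, with differences of -3.35 for Il21, -3.18 for Cacng5, -2.83 for Rspo3 and -2.61 for Sv2b. The value for Il21 is approximate, since its level was below the array median on the CTX KO arrays at 6 h and 0 h.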

How the results depend on the processing

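Of 194 named genes called over 6 h in CTX KO cultures, 127 kept the call under all 12 alternatives. The sign turned when the mean of all probe sets stood for the gene for Cdh10 (-0.19), Gria4 (0.02), Osbpl10 (0.01) and Rims2 (0.65), and for the genes not called on the main setting Creb1 (0.84), Homer1 (1.69) and Tle4 (0.96). The 4482 calls over 6 h in CTX KO numbered 3174 to 3675 with 1 array left out and 3698 in a fit of the 4 arrays alone. Between 6 h and 1 h, leaving out 1 array gave 2249 to 2960 calls, the fewest without the second 1 h array. Between 1 h and 0 h it gave 47 to 77. In CTX WT, fitting only the arrays compared gave 1963 calls over 6 h, against 4362. For the genotype difference, an offset of 32 before the log gave 2 calls, as did leaving out the first WT array at 0 h (1 to 2 calls over the arrays left out). In MGE KO, fitting only the arrays compared gave 1332 calls and leaving out 1 array 1008 to 1470. For the CTX KO and MGE KO difference these were 552 and 430 to 1125. The causes were not tested.

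The replicate numbers name 2 arrays in each group, and nothing in the labels ties equal numbers to 1 litter, batch or day. The deviations of equal numbers correlated at 0.111 to 0.711 between CTX groups, positive for every pair of groups. Arrays of equal number thus shared part of their deviation, and the tests above took no account of it. What they shared is not named, and 2 numbers do not settle a pairing. With the replicate number as a block, 5085 genes were called over 6 h in CTX KO, 2 between KO and WT at 0 h (against 0) and 1404 in the CTX KO and MGE KO difference (against 908). The difference between the KO and WT responses at 6 h again called 1 gene. Among the lists, it called 7 glutamate receptor genes lower (against 3), 10 potassium channel genes lower (against 5), 14 axon guidance genes lower (against 9) and 9 protocadherin and cadherin genes higher (against 3). Precision is limited by 2 arrays a group, and below the array median signal was not told apart from background.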
